A study of Homo sapiens with 12 samples.

Results

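The 32 genes described here carry glucose into the cell, break it down to pyruvate, exchange pyruvate for lactate and pass pyruvate to the mitochondrial pyruvate dehydrogenase complex. They were chosen by symbol and not by their measured values, though earlier results of these data were known at the time. All 32 were found in both deposited tables of RNA levels, which list 55514 and 44389 genes. The libraries came from Jurkat, a line derived from a human T cell leukaemia. One table holds 3 ZNF683 libraries, whose genotype label is ZNF683 induced by doxycycline (Dox), and 3 Mock libraries. The other holds 3 Dox+ and 3 Dox- libraries of a line titled Hobit, grown with and without the drug, given in the labels as 1 ug/uL. Hobit, the product of ZNF683, is a zinc finger repressor found in effector and tissue-resident lymphocytes. The labels do not say whether Mock cells received doxycycline, which promoter drives the factor, or whether the line is a single clone, so the first comparison may also hold a drug difference. They also do not say that replicate libraries came from separate cultures, so each p-value speaks only to the spread among these libraries, which may be technical.

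Glycolysis phosphorylates glucose, splits the resulting hexose into triose phosphates and converts these to pyruvate, with a net gain of ATP. Pyruvate is then either reduced to lactate by lactate dehydrogenase and exported, or oxidised to acetyl-CoA by pyruvate dehydrogenase, which the PDK kinases switch off by phosphorylation. Activated and leukaemic T cells are known for high glycolytic flux, and many of these genes are textbook targets of the hypoxia-inducible factors (HIF) and of MYC.

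Values are TPM, transcript abundances corrected for length and scaled to a fixed library total, so levels can be set side by side between genes. Read depth is unknown, because TPM keeps no record of it. The factor's own RNA was low and did not check the labels: 1.04 to 1.76 TPM in the libraries labelled ZNF683 against 0.681 to 1.59 in Mock, and 0.453 to 0.774 with Dox+ against 0.115 to 0.451 with Dox-. A pair of Dox- libraries stood apart. In Dox- library 1 the long non-coding RNA AL135790.1 took 50.7% of all TPM (4.94% to 12.8% in the other 11 libraries), which lowers every other value there. Dox- library 2 held 637 TPM of the heat shock gene HSPA6, which was at most 6.85 TPM in any other library. For this reason 2 scales were used in both comparisons: TPM as deposited, and TPM divided by the library's median-of-ratios factor, which is the median over genes of the ratio to each gene's geometric mean across the table, and came to 0.583 for Dox- library 1. The 7 T cell markers summed to 3538 to 4207 TPM in the first table, to 3244 to 3566 with Dox+ and to 1327 to 2860 with Dox-. Summed markers of myeloid cells stayed at or below 2.18 TPM in all libraries, B cell markers between 10.4 and 58.2, mostly CD79A, and epithelial markers between 1.48 and 6.38. Erythroid and fibroblast markers reached 20.4 and 18.1 TPM in Dox- library 2 and at most 2.36 and 5.60 in the others. In such bulk RNA, fewer cells of a type and less RNA per cell cannot be told apart.

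Most steps of the pathway had one strongly expressed enzyme. GAPDH, the triose phosphate dehydrogenase, had the highest median level over the 12 libraries, 3701 TPM (range 1676 to 6991). LDHB, the lactate dehydrogenase subunit that favours pyruvate formation, followed at 1508 TPM. ENO1 (enolase), ALDOA (aldolase), PKM (pyruvate kinase), TPI1 (triose phosphate isomerase), LDHA (the lactate-forming subunit), PGK1 (phosphoglycerate kinase) and PGAM1 (phosphoglycerate mutase) had medians between 599 and 1240 TPM. The neighbours in that order overlapped widely. At the other end stood the muscle-type phosphofructokinase PFKM at 6.07 TPM and PFKFB2 at 5.34 TPM, an enzyme that makes fructose 2,6-bisphosphate, the activator of phosphofructokinase. Among isoforms, HK1 (49.2 TPM) exceeded HK2 (6.93), PFKP (116) and PFKL (76.9) exceeded PFKM, ALDOA (1162) exceeded ALDOC (29.6), and ENO1 (1240) exceeded ENO2 (90.6) and ENO3 (23.2). Together the 32 genes made up 1.35% to 1.57% of a library's TPM in the first table and 1.03% to 1.15% with Dox+. The Dox- libraries 1, 2 and 3 held 0.671%, 2.32% and 1.31%.

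Near-identical processed copies can take reads from several of these genes. Copies were picked here by name among annotated pseudogenes, and their likeness to the parent gene was not checked. GAPDH has 62 annotated copies in GENCODE v29, of which the first table lists 62 and the second 51. Those listed summed to 0.373% to 1.11% of GAPDH itself. The 6 copies of LDHA summed to 0.916% to 1.59% of the parent gene. Those of PGAM1, 13 in the first table and 12 in the second, summed to 0.398% to 0.947%. The highest share was that of SLC2A3, whose 2 listed copies summed to 0.338% to 2.14%.

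**Figure D1:**
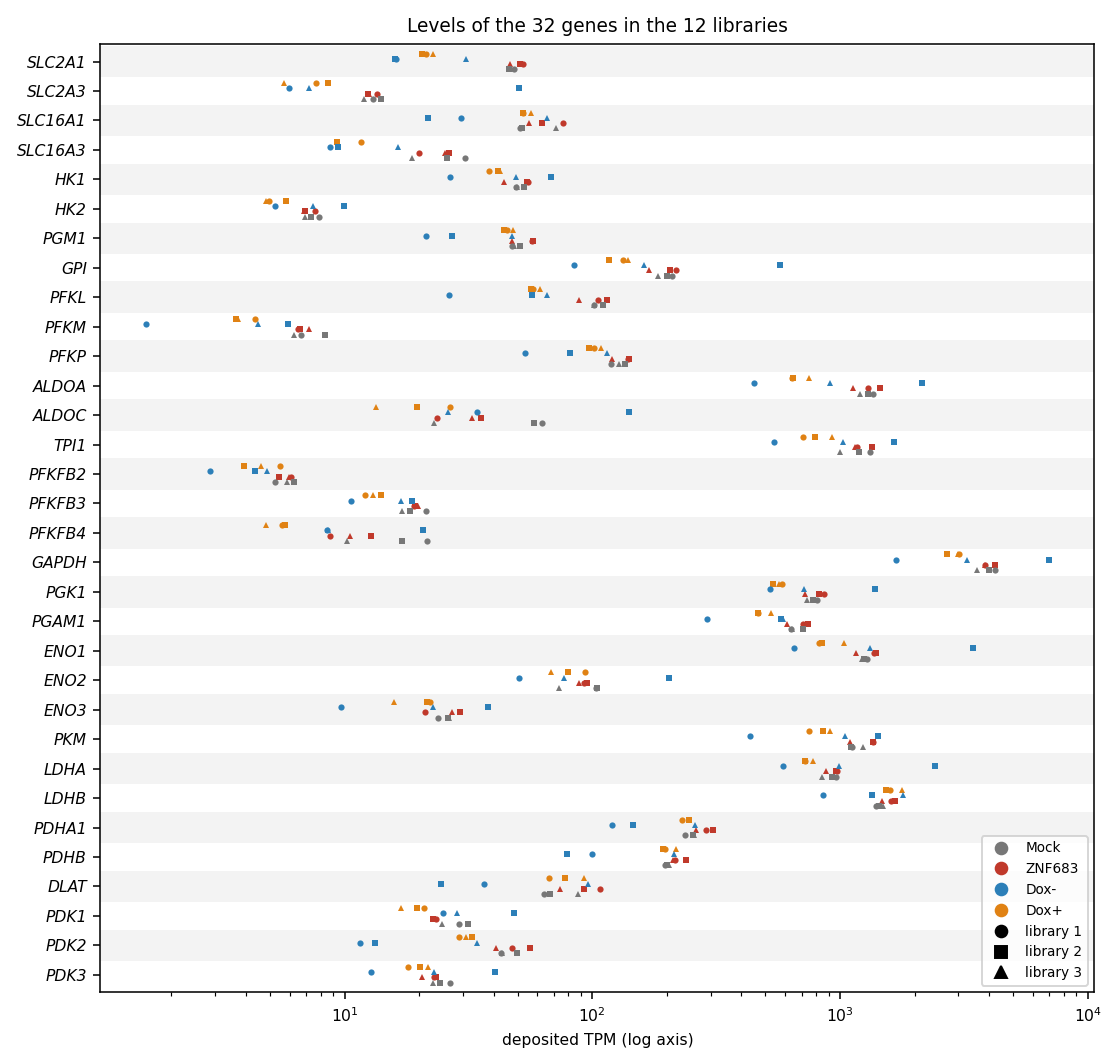
Deposited TPM (log axis) of the 32 genes in the 12 libraries, with colour for the group and marker shape for the library number. The 6 libraries of the first table lie close together for most genes, while Dox- library 2 lies far to the right for GPI, ALDOC, ENO1, LDHA and GAPDH, and Dox- library 1 lies to the left for 23 genes.

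The first comparison asked how gene expression differed between libraries labelled as expressing ZNF683 and Mock libraries. Glycolytic genes stood at much the same level in both. None of the 32 genes passed the test (limma on log2(TPM + 1), adjusted p threshold 0.05), against 5 of 16588 genes tested, or 0.0301%. Without adjustment, PDK1 alone among the 32 had p under 0.05, as did 2152 of all genes. The median log2 change of the 32 genes was 0.03, that of all genes 0.03, and 16 of the 32 lay below the latter. On the median-of-ratios scale these medians were 0.08 and 0.07.

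Levels were close along the main line of the pathway. GAPDH measured 3837, 4229 and 3852 TPM in the ZNF683 libraries and 4232, 3995 and 3565 in Mock, a log2 change of 0.02 ± 0.14 (SE). LDHA stood at 975, 962 and 876 TPM against 961, 927 and 846. The log2 change of LDHB was 0.14 ± 0.11, with levels of 1610.1, 1671 and 1479 TPM against 1393, 1433 and 1490. Groups overlapped for all 3 genes. For the 4 transporters (SLC2A1 and SLC2A3 for glucose, SLC16A1 and SLC16A3 for lactate), the 10 genes from hexokinase to triose phosphate isomerase and the 7 genes from GAPDH to pyruvate kinase, every group overlapped on both scales. The median log2 change was 0.04 for the transporters, -0.01 for the upper steps and 0.05 for the lower steps.

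Pyruvate entry held the only members whose 3 ZNF683 values did not overlap the 3 Mock values. PDK1, a kinase that inactivates pyruvate dehydrogenase, measured 23.5, 22.7 and 23.1 TPM in the ZNF683 libraries and 28.9, 31.6 and 24.7 TPM in Mock (means 23.1 ± 0.376 and 28.4 ± 3.46, SD, n = 3). All ZNF683 libraries were below all Mock libraries, though Mock library 3 was close. The log2 change was -0.28 ± 0.11 with a limma adjusted p of 0.365, and the groups overlapped on the median-of-ratios scale, where it was -0.23 ± 0.12. PDHA1, the catalytic alpha subunit of the complex's E1 enzyme, measured 288, 306 and 262 TPM against 236, 254 and 256. PDHB, the E1 beta subunit, measured 215, 238 and 213 TPM against 197, 200.2 and 204. Both subunits were higher in every ZNF683 library on either scale, by a log2 change of 0.20 ± 0.11 and 0.15 ± 0.10, with limma adjusted p of 0.435 and 0.504. DLAT, the E2 subunit that transfers the acetyl group, had 108, 92.7 and 74.3 TPM against 63.6, 67.2 and 87.3, so its groups overlapped.

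Non-overlap as such was common in this table: it held in the higher direction for 8.71% of genes and in the lower direction for 8.51%, or 11.8% and 7.24% on the median-of-ratios scale. With 2 genes higher and 1 lower as deposited, and 2 higher and 0 lower on the other scale, the 32 genes were near that background.

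ALDOC, the brain-type aldolase, and PFKFB4, another PFK-2 enzyme, had the lowest fitted values. ALDOC measured 23.5, 35.6 and 32.6 TPM in the ZNF683 libraries and 62.5, 58.4 and 23.1 TPM in Mock (log2 change -0.53 ± 0.35). PFKFB4 measured 8.71, 12.8 and 10.5 TPM against 21.5, 17.02 and 10.2 (-0.52 ± 0.25, limma adjusted p 0.413). In both genes Mock libraries 1 and 2 were above every ZNF683 library, and Mock library 3 was below the ZNF683 range or within it. Without Mock library 3, 5 members lay higher and 5 lower without overlap, as did 4423 and 2691 of 16570 genes, and the smallest limma adjusted p of a member was 0.0771. Without ZNF683 library 3 these counts were 13 and 1, against 4176 and 2779 of 16590 genes, and without Mock library 1 they were 4 and 1, against 1684 and 2582 of 16655 genes.

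The second comparison asked what differed with doxycycline in the line titled Hobit. Most glycolytic genes lay lower with Dox+ relative to other genes, and the fitted values of the pyruvate dehydrogenase subunits were above 0. On the median-of-ratios scale those subunit values came mainly through Dox- library 2. As deposited they stayed above 0 without that library, at 0.44 (PDHA1), 0.47 (PDHB) and 0.40 (DLAT). None of the 32 genes passed the test. In all, 60 of 15148 genes did (0.396%), and 960 had an unadjusted p under 0.05, among them ALDOC and PFKFB4. The median log2 change of the 32 genes was -0.13, that of all genes 0.32, and 23 of the 32 lay below the latter. On the median-of-ratios scale the values were -0.34 and 0.13, with 24 below. SLC2A1, PFKM and PGAM1 were above 0 on the first scale and below 0 on the second. Without Dox- library 2 the deposited median of the 32 genes turned to 0.22, with 0.39 for all genes, and on the median-of-ratios scale it was -0.19, with 0.04 for all genes.

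Library 2 of Dox- gave the highest value of 19 of the 32 genes and library 1 the lowest of 23, as deposited. The excess in library 2 was uneven. SLC2A3 (GLUT3), a high-affinity glucose transporter, measured 5.94, 50.5 and 7.16 TPM in Dox- libraries 1 to 3 and 7.64, 8.60 and 5.67 with Dox+. GPI, the glucose phosphate isomerase, measured 84.6, 569.9 and 162 TPM against 133, 117 and 139. As deposited, library 2 alone stood out in both genes, at 7.05 and 3.51 times the level of Dox- library 3. In the same library SLC2A1 (GLUT1), the lactate transporter SLC16A1 (MCT1), PDHB and DLAT had their lowest values of the series, at 16.0, 21.7, 78.9 and 24.4 TPM. The T cell marker sum was also lower in Dox-, with 5 of 7 markers below every Dox+ library on both scales; its part in these values was not tested.

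**Figure D2:**
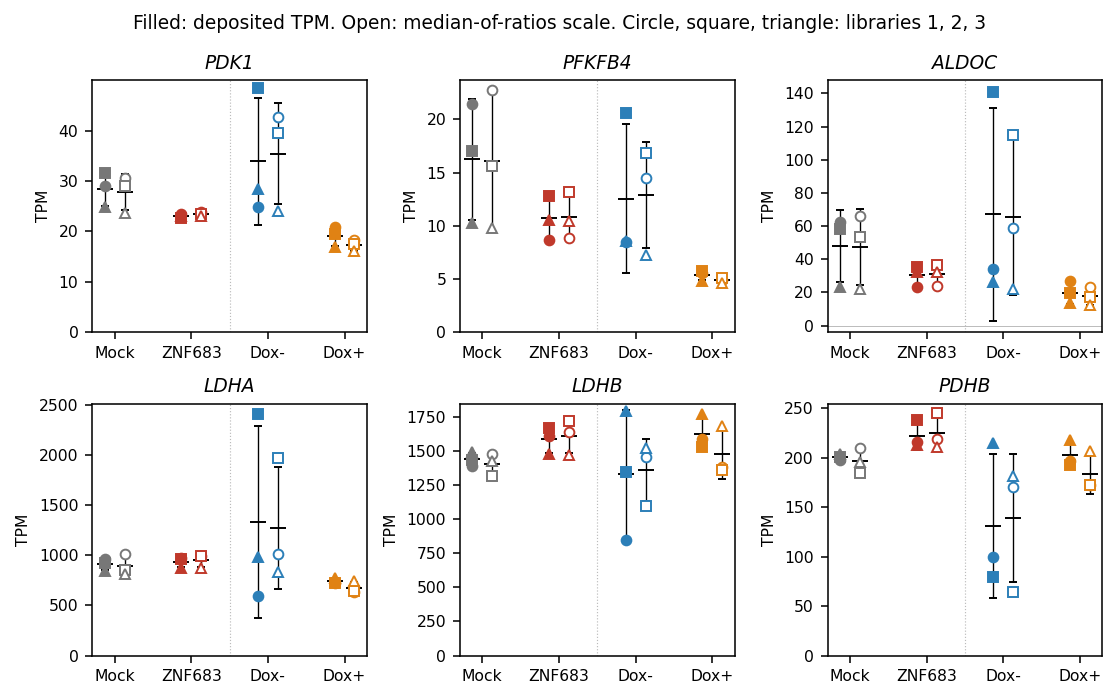
TPM of 6 genes by group, filled for deposited values and open for the median-of-ratios scale, with the mean and SD (n = 3) as black bars. PDK1 and PFKFB4 are lower in every Dox+ library than in every Dox- library on both scales, LDHA only on the median-of-ratios scale, and PDHB and LDHB overlap throughout the Dox panels.

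Of the kinases that trap glucose, HK1 measured 38.1, 41.6 and 42.3 TPM with Dox+ and 26.5, 67.9 and 49.4 with Dox-. HK2, the inducible form, measured 4.97, 5.77 and 4.82 TPM against 5.24, 9.90 and 7.42. Both overlapped as deposited. After median-of-ratios scaling HK2 was 4.34, 5.15 and 4.58 against 8.98, 8.09 and 6.29, so that all Dox+ libraries lay below all Dox- libraries, with a log2 change of -0.62 ± 0.19 and a limma adjusted p of 0.688. HK1 also lay lower without overlap on that scale, as did GPI and ALDOA.

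ALDOC measured 26.7, 19.7 and 13.4 TPM with Dox+ and 34.2, 141 and 26.1 with Dox-. Its log2 change of -1.35 ± 0.43 was the lowest of the 32 genes, with an unadjusted limma p of 0.00167 and an adjusted p of 0.220. Dox+ library 1 and Dox- library 3 overlapped. The value was -1.57 ± 0.56 on the median-of-ratios scale, again with overlap. The phosphofructokinases PFKL and PFKP were at 0.33 ± 0.43 and 0.36 ± 0.43 as deposited and at 0.11 ± 0.16 and 0.14 ± 0.19 on the median-of-ratios scale, and overlapped. PGM1, which links glucose 6-phosphate to glycogen, was at 0.58 ± 0.43 and 0.36 ± 0.24.

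Of the PFK-2 enzymes, PFKFB4 measured 5.61, 5.72 and 4.83 TPM with Dox+ and 8.47, 20.6 and 8.57 with Dox-. Its groups did not overlap on either scale, and the log2 change was -0.97 ± 0.42 as deposited (limma adjusted p 0.710) and -1.17 ± 0.30 on the median-of-ratios scale. PFKFB3, the inducible form of the enzyme, lay below without overlap on the latter scale only, at 10.5, 12.5 and 12.4 against 18.2, 15.3 and 14.3. PFKFB2 was close to 0 there, at 0.01 ± 0.19.

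Along the lower steps, PGK1 and ENO1 showed the clearest separation. PGK1 measured 585, 534 and 566 TPM with Dox+ and 524, 1379.7 and 713 with Dox-, and on the median-of-ratios scale 512, 477 and 539 against 898, 1127 and 604. ENO1 on that scale measured 717, 756 and 983 against 1119, 2808 and 1114. Dox+ was lower in every library for both genes, with log2 changes of -0.74 ± 0.24 and -0.90 ± 0.37. GAPDH, at 2648, 2419.8 and 2837 against 2874, 5712 and 2755 on that scale, overlapped, as did PGAM1, ENO2, ENO3, PKM and TPI1.

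The lactate dehydrogenase subunits lay on either side of 0. LDHA measured 725, 721 and 777 TPM with Dox+ and 589.9, 2412 and 987 with Dox-, and on the median-of-ratios scale 633, 643 and 739 against 1012, 1971 and 836. LDHB measured 1586, 1526 and 1772 TPM with Dox+ and 850.3, 1343 and 1792 with Dox-. The scaled LDHA groups did not overlap (log2 change -0.82 ± 0.31), and the LDHB groups did (0.13 ± 0.18). LDHB exceeded LDHA in every library of the series except Dox- library 2.

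At pyruvate entry PDK1 and its substrate lay on opposite sides of 0. PDK1 measured 20.8, 19.5 and 16.9 TPM with Dox+ and 24.9, 48.4 and 28.3 with Dox-. These values did not overlap on either scale, and the log2 change was -0.74 ± 0.43 as deposited and -0.96 ± 0.24 on the median-of-ratios scale, where its unadjusted limma p was 0.00504 and its adjusted p 0.688. PDHB measured 197, 193 and 217 TPM against 99.5, 78.9 and 214, and DLAT 67.0, 77.8 and 92.7 against 36.4, 24.4 and 95.9. As deposited, Dox- libraries 1 and 2 were below all Dox+ libraries in both genes, and Dox- library 3 was within or above the Dox+ range. After median-of-ratios scaling, PDHB measured 172, 172 and 207 against 171, 64.5 and 182, and DLAT 58.5, 69.4 and 88.2 against 62.4, 19.9 and 81.3, so that library 2 alone stood well below. The log2 changes of PDHB, DLAT and PDHA1 went from 0.76, 0.82 and 0.53 as deposited to 0.53, 0.59 and 0.31 on that scale, and there to 0.05, -0.01 and 0.03 without Dox- library 2. The kinase PDK2 measured 29.01, 32.6 and 30.8 TPM against 11.5, 13.3 and 34.1, with a log2 change of 0.78 ± 0.43, or 0.57 ± 0.33 on the median-of-ratios scale. PDK3 overlapped at -0.20 ± 0.43, or -0.41 ± 0.23 on that scale. As deposited and without Dox- library 3, DLAT, PDHB, PDHA1, PDK2, SLC16A1 and PGM1 passed the limma test as higher with Dox+, with adjusted p of 0.0342 to 0.0408, while 2788 of 15127 genes passed in either direction. Without that library 0 members passed on the median-of-ratios scale, with limma adjusted p of 0.364 to 0.388 for these 6 genes.

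Counting over all steps, 2 of the 32 genes (PFKFB4 and PDK1) lay lower without overlap as deposited, against 0.891% of all genes, and 0 lay higher, against 7.91%. On the median-of-ratios scale 10 lay lower (HK1, HK2, GPI, ALDOA, PFKFB3, PFKFB4, PGK1, ENO1, LDHA and PDK1), against 3.72% of all genes, and 0 higher, against 9.34%. There, 7 of the 32 genes had an unadjusted limma p under 0.05 in the lower direction, against 1.38% of genes, and the smallest adjusted p was 0.688. As deposited, leaving out Dox- library 1 gave 17 lower, while 1850 of 15525 genes were so, and leaving out Dox- library 3 gave 3 lower and 9 higher, while 237 and 7485 of 15127 genes were so. The same step gave 16 lower and 4 higher on the median-of-ratios scale, against 1707 and 4117 of 15127 genes. Since the 2 outlying libraries were both Dox-, Dox- library 3 was also set alone against the 3 Dox+ libraries: it was above every one of them for 26 of the 32 genes, against 35.2% of all genes, and on the median-of-ratios scale for 16 of 32, against 17.2%. With 1 library on one side, that setting has no measure of the spread among Dox- libraries and is a description only.

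**Figure D3:**
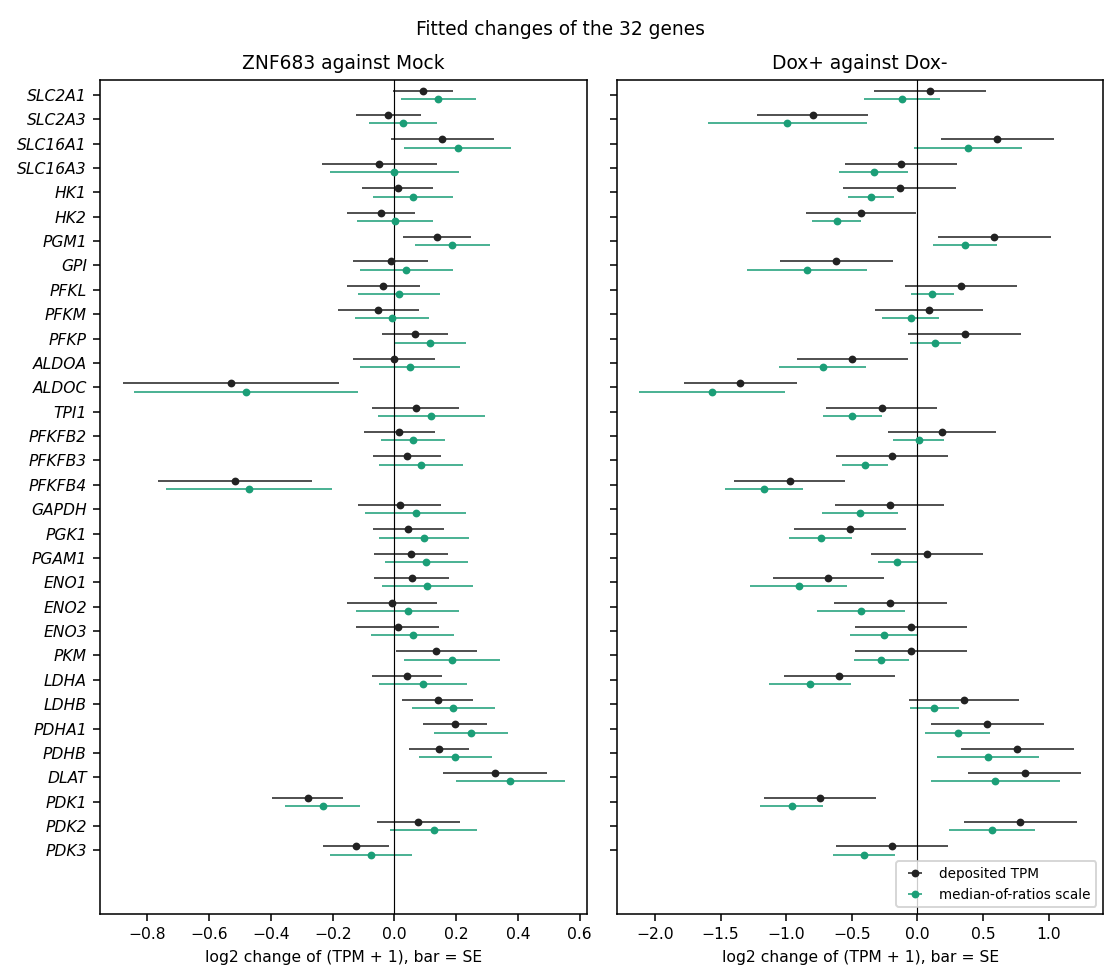
Fitted log2 change of (TPM + 1) with its SE for the 32 genes, as deposited (black) and on the median-of-ratios scale (green), ZNF683 against Mock on the left and Dox+ against Dox- on the right; the horizontal axes differ. ALDOC and PFKFB4 are lowest on both sides, at -0.53 and -0.52 on the left and -1.35 and -0.97 on the right, and bars on the right are wider.

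The difference between the 2 effects was tested as a contrast over the 12 libraries, with each effect taken within its own table. None of the 32 genes passed, against 2 of 14468 genes (0.0138%), and the smallest limma adjusted p of a member was 0.876. PDK1, for example, differed by -0.46 ± 0.38, and 19 of the 32 genes were below 0. On the median-of-ratios scale PDK1 differed by -0.73 ± 0.27, and 24 of the 32 genes were below 0. There, 6 of the 32 had an unadjusted limma p under 0.05, all lower, as did 228 of 14468 genes in that direction. None of the 32 passed on that scale either, with a smallest limma adjusted p of 0.983. As deposited and without Dox- library 3, DLAT, PDHB, PDHA1, PDK2, SLC16A1 and PGM1 passed with differences of 0.66 (PDHA1) to 1.17 (PDK2), while 2550 of 14423 genes passed in either direction. With all libraries, no gene of the pathway was shown to differ in its response between the tables, nor to respond alike.

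A ratio of 2 genes within a library does not depend on how that library is scaled, so 8 ratios of isoforms or partners were compared in each table by an exact two-sided permutation test, 16 tests in all. With 3 libraries per group the smallest p is 0.1, and its value adjusted over the 16 tests was 0.267. How often ratios of other gene pairs separate without overlap was not computed, so counts of such ratios have no background. PDK1/PDHA1, the kinase over its substrate, was 0.0814, 0.0741 and 0.0881 in the ZNF683 libraries and 0.123, 0.124 and 0.0964 in Mock. It was 0.0905, 0.0798 and 0.0689 with Dox+ and 0.208, 0.330 and 0.109 with Dox-. In both tables every ZNF683 or Dox+ library lay below every Mock or Dox- library, with an exact permutation p of 0.1 each. In the first table this outcome was fixed by its parts. There PDK1 lay lower and PDHA1 higher without overlap as deposited, so the ratio had to separate and adds no support of its own. In the second table PDK1 alone lay apart without overlap, and PDHA1 overlapped. Without Mock library 3 the count of non-overlapping ratios in the first table went from 1 to 5, and without ZNF683 library 3 to 4.

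With doxycycline 4 further ratios were lower without overlap, each with the same exact permutation p of 0.1 and no background share beside it. LDHA/LDHB measured 0.457, 0.473 and 0.438 with Dox+ and 0.694, 1.80 and 0.551 with Dox-. HK2/HK1 measured 0.130, 0.139 and 0.114 against 0.197, 0.146 and 0.150. SLC16A3/SLC16A1, the exporter MCT4 over MCT1, measured 0.222, 0.177 and 0.166 against 0.295, 0.433 and 0.249. PDK1/PDK3, a ratio of kinases of the same complex, measured 1.15, 0.968 and 0.777 against 1.94, 1.19 and 1.23. In the first table these 4 ratios overlapped, and SLC2A3/SLC2A1, ALDOC/ALDOA and ENO2/ENO1 overlapped in both.

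**Figure D4:**
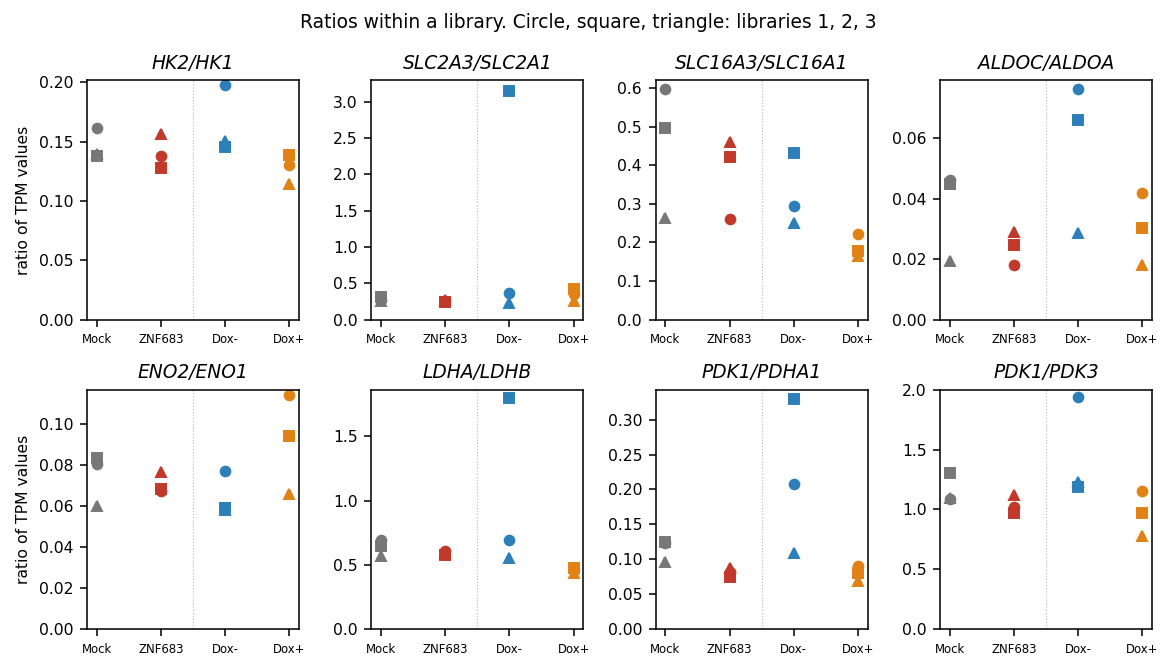
Ratios of TPM values within each library for 8 gene pairs, by group, with marker shape for the library number. PDK1/PDHA1 is lower in all ZNF683 than all Mock libraries and in all Dox+ than all Dox- libraries, and SLC2A3/SLC2A1 is set apart in Dox- library 2 alone, at 3.15.

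Neighbouring pathways were described from lists drawn up by function, with earlier results of these data known. In the first comparison 0 genes of these lists passed the test. There, 9 of 11 tested HIF targets outside glycolysis were below 0, among them ANKRD37 at -0.55 ± 0.19 and BNIP3, a mitophagy receptor, at -0.48 ± 0.28. The groups overlapped for all 11. In both named genes Mock library 3, at 14.9 and 55.9 TPM, was within the range of the ZNF683 libraries. The pentose phosphate pathway had 5 of 7 genes above 0, with RPIA, the ribose 5-phosphate isomerase, at 0.33 ± 0.11, and the citric acid cycle 11 of 16. Of all genes tested, 54.9% were above 0.

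In the second comparison 11 of 12 HIF targets outside glycolysis were below 0, and 2 of them passed the test as lower. ADM, the vasodilator peptide adrenomedullin, measured 1.11, 0.747 and 0.413 TPM with Dox+ and 4.31, 23.1 and 2.67 with Dox- (log2 change -2.16 ± 0.40, limma adjusted p 0.000112). AK4, a mitochondrial adenylate kinase, measured 2.93, 2.79 and 1.85 TPM against 9.001, 40.7 and 7.33 (-2.12 ± 0.42, limma adjusted p 0.000425). All Dox+ libraries were below all Dox- libraries in both genes, but the calls did not hold throughout. On the median-of-ratios scale 0 genes of the list passed, with an adjusted p of 0.688 for both. Without Dox- library 1 the limma adjusted p was 0.682 for both, without Dox+ library 2 it was 0.0549 for ADM and 0.0927 for AK4, and without Dox+ library 3 it was 0.0886 and 0.190. Without Dox- library 2 it was 0.115 for AK4. Of the regulators themselves, HIF1A, the oxygen-regulated subunit, was at 0.41 ± 0.43 and overlapped on the median-of-ratios scale. Genes of the citric acid cycle (16 of 16), the pentose phosphate pathway (7 of 7) and other glycolysis and pyruvate entry genes (11 of 13) were above 0, as 79.1% of all genes were, and 0 passed. On the median-of-ratios scale these counts were 15, 7 and 10, against 64.3% of all genes. Glycogen metabolism had 6 of 8 above 0, with the branching enzyme GBE1 lower without overlap at 16.6, 16.0 and 14.9 TPM against 20.7, 42.4 and 24.2.

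Because HIF and MYC family factors are known to bind short E-box-like letters near many of these genes, the 250 bases before each RefSeq start (GRCh38.p14) were searched for ACGTG and GCGTG on both strands. The palindrome CACGTG counts as 2 overlapping matches. Of the 32 genes, 29 were in the RefSeq table; PFKFB2, SLC16A1 and SLC2A3 were not. The first listed window held a match in 17 of the 29 genes (58.6%), against 43.1% of 27305 genes. The latter are all genes with a window, whether expressed here or not, so the shares come from unlike sets. Among the 10 members that lay lower with Dox+ on the median-of-ratios scale 8 held a match, and among the other 19 with a window 9 did. These counts use the first listed start only. At another listed start HK1 and PDK1 of the former held matches, as did TPI1, PGM1, PFKP, PFKM, SLC16A3 and PDK2 of the latter. Whether matches go with the lower values was not tested. All these counts include bases inside GENCODE v29 exons. Of the 10 lower members, such bases filled all 250 of the window for HK2, GPI and ENO1. They numbered 225 for ALDOA, 175 for LDHA, 155 for PFKFB4 and 74 for PGK1. HK1 had 16, and PFKFB3 and PDK1 had 0. Windows of other members ranged from wholly inside exons, as for ALDOC and PKM, to 0 such bases for PFKP. The stretches below were chosen to show the contrast between LDHA and LDHB, and PGK1, a member with matches that lay lower without overlap on the median-of-ratios scale. The others are PDHB, a member with matches whose fitted value was above 0, and PDK1. PDHB did not pass the test, and its groups overlapped on both scales. Its median-of-ratios value was 0.05 without Dox- library 2. Each stretch is printed 5′ to 3′ on the gene's own strand, without bases inside any GENCODE v29 exon, and capitals mark the matches.
LDHA: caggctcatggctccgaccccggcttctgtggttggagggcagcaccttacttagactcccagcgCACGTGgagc
LDHB: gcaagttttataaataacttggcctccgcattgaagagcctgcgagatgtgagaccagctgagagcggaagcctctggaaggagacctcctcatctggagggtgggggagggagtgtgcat
PGK1: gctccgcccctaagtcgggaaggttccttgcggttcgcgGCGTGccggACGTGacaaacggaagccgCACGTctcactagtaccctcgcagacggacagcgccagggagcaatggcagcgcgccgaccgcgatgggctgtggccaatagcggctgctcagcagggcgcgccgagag
PDHB: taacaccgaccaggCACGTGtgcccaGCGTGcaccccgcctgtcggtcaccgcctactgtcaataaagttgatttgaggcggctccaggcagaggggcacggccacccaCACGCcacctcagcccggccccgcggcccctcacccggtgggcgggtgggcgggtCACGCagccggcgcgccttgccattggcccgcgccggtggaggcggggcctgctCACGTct
PDK1: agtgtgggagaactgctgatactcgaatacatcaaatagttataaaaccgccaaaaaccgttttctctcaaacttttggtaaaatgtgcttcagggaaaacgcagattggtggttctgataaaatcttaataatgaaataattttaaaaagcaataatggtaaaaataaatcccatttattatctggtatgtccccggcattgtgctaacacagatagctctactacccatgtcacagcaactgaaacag

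The LDHA stretch (chr11:18394313.0-18394387.0, plus strand) holds 1 CACGTG, and the whole LDHA window holds 5 matches. The LDHB stretch (chr12:21657972.0-21658092.0, minus strand) and its whole window hold 0. The PGK1 stretch (chrX:78103998.0-78104173.0, plus strand) holds 3 matches, and the PDHB stretch (chr3:58433858.0-58434082.0, minus strand) holds 6. The PDK1 stretch (chr2:172555123.0-172555372.0, plus strand) before the first of its 2 listed starts holds 0, and the window before the other start holds 2. Matches were thus present in members on either side of 0 and missing from the first PDK1 window. A match is a description of letters and not a binding site, and a missing match says only that these letters are not in the window.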

How the data were processed

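RNA extracted from 12 Jurkat libraries was prepared with a low-input kit, per the labels' protocols. The authors deposited TPM values per gene symbol in 2 tables. Tools named by the submitters' processing notes are DESeq2 1.22.2 and kallisto 0.46.0, whose roles the notes leave unsaid; which genome build or transcript annotation they used is not given in the sources used here. Groups came from titles and genotype labels. Each table was fitted separately with limma 3.58.1 (R 4.3.3) on log2(TPM + 1), using a mean-variance trend and two-sided tests. Genes averaging 1 TPM or more entered, Benjamini-Hochberg adjustment ran over all of them, and the threshold was 0.05. All 32 members passed that filter in both tables. Log2 changes are given ± SE and understate low genes. The prior degrees of freedom were infinite in the doxycycline table as deposited, so nearly the same variance was used at a given level. Ratios were tested by exact permutation in Python 3.11.15 with numpy 2.4.6 and pandas 2.3.3. The procedure was tested on simulated data. Positions are from GENCODE v29 or RefSeq on GRCh38, matched by symbol. All members were named and, of other lists, at most the 3 genes with the smallest unadjusted p in a comparison. AL135790.1, HSPA6 and CD79A were named after their values were seen. Members and lists were chosen with earlier results of these data known. Alternatives were the scaling, AL135790.1 left out, a pseudocount of 0.1, other filters, robust moderation, a replicate block and each library left out.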

Additional observations from a re-analysis of the deposited data

How the results depend on the processing

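With 3 libraries per group and unknown depth, these results rest on few values, and in the doxycycline table on which Dox- libraries are used. No member passed the threshold in either comparison or in their difference under any scaling, pseudocount, filter or moderation tried. A replicate block also left 0 members called. The titles give Dox- and Dox+ libraries the same line name and numbers, and do not say whether equal numbers are pairs. Deviations of same-numbered libraries from their group means correlated at -0.21, 0.07 and -0.25 in the first table and 0.08, 0.05 and 0.36 in the second. The numbers were not taken to pair libraries in the main fit. With Dox- libraries 1 and 2 standing apart, these correlations cannot exclude a pairing. Leaving out single libraries gave 0 to 6 members called with doxycycline and 0 to 6 for the difference, the 6 without Dox- library 3. Members without overlap between ZNF683 and Mock, 3 with all libraries, ranged from 3 to 14 (3 to 12 on the median-of-ratios scale, chosen after seeing the data), and ratios from 1 to 5. With doxycycline they came to 2 as deposited, 10 on the median-of-ratios scale, 14 without AL135790.1 and 2 to 17 over single libraries left out. On the median-of-ratios scale, with factors computed anew from the libraries kept, the range was 10 to 20. As deposited, leaving a library out cannot make separate groups overlap. Fewer libraries also separate more easily on either scale, so these ranges do not measure stability. Dox- library 3 alone, chosen after seeing the data, gave 26, or 16 on the median-of-ratios scale. Over single libraries left out the log2 change ranged from -0.50 to 0.16 for HK1, -1.23 to 0.14 for GPI, -1.04 to 0.083 for ALDOA and -1.32 to 0.13 for SLC2A3, lowest without Dox- library 1 and above 0 without Dox- library 2; the cause was not tested. Over all genes, 60 calls with doxycycline became 1 on the median-of-ratios scale, 0 without AL135790.1, 0 without a filter, 15 at a mean of at least 5 TPM, 23 with robust moderation and 34 with the replicate block. The 5 calls for ZNF683 became 3 with a pseudocount of 0.1, 8 with robust moderation, and 0 without a filter, at 5 TPM or with the block. Over single libraries left out, calls over all genes ranged from 0 to 49 for ZNF683, from 0 to 2788 with doxycycline and from 1 to 2550 for the difference, whose 2 calls became 1 on the median-of-ratios scale and 60 with the block.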
